A study of Homo sapiens with 12 samples.

Results

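The genes described are the 10 enzymes of serine synthesis and of folate-bound one-carbon metabolism listed by name: PHGDH, PSAT1 and PSPH, which make serine; SHMT1 and MTHFD1, the cytosolic folate enzymes; and SHMT2, MTHFD2, MTHFD1L, MTHFD2L and ALDH1L2, the mitochondrial folate enzymes. All 10 were found by gene name among the 32077 genes of the count table, and all 10 passed the filter on low counts in every comparison. RNA-seq was carried out on the established human prostate cancer cell lines labelled PC3 and DU145, both given as wild type, after 48 hours in medium with 2.5 μmol/L pentamidine, an antiprotozoal diamidine, or with vehicle. Each of the 4 groups, PC3 vehicle, PC3 pentamidine, DU145 vehicle and DU145 pentamidine, had 3 samples, 12 in all. The labels do not say that the samples of a group came from separate cultures, so p-values measure the spread between these samples, which may be technical.

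PHGDH, PSAT1 and PSPH act in turn to turn a glycolytic intermediate, 3-phosphoglycerate, into serine. SHMT1 in the cytosol and SHMT2 in mitochondria then pass a carbon unit from serine to tetrahydrofolate, leaving glycine. In mitochondria MTHFD2 or MTHFD2L oxidize the folate-bound unit, MTHFD1L releases it as formate and ALDH1L2 oxidizes it fully, whereas in the cytosol the single enzyme MTHFD1 carries the unit between its oxidation states for purine and thymidylate synthesis. Genes of serine synthesis and of the mitochondrial branch are known targets of the transcription factor ATF4 and are known to rise when mitochondria are impaired. In these bulk samples, a change in the mix of cells and a change in the RNA of each cell cannot be told apart.

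Total counts ranged from 13514195 to 15131436 per sample. The 13 mitochondria-encoded mRNAs took 3.35% to 4.04% of the counts of the vehicle samples and 0.205% to 0.257% of those of the pentamidine samples. Some epithelial marker genes were near 0. EPCAM, CDH1 and KRT19, which mark epithelial cells, had at most 10 counts in any sample, whereas KRT8 had 238 to 307 counts in samples labelled PC3 and 25835 to 38812 in samples labelled DU145. PC3 and DU145 below are the lines as labelled. KLK3, the androgen-responsive gene of prostate-specific antigen, had at most 2 counts in any sample. Markers of leukocytes, fibroblasts and endothelium had at most 40 counts in any sample (CD3E was not analysed here).

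The members lie on 9 chromosomes. On GRCh38, the build of the deposited coordinates, all 10 had the same start, end and strand as in GENCODE release 29. Promoter windows of 300 bases, from 250 before to 50 after a start site, were given by RefSeq on GRCh38.p14 for 7 of the 10 members. PSPH, SHMT2 and ALDH1L2 had no entry. The start sites of the windows need not be the deposited gene starts. They lay 18 bases away for PSAT1, 53 for MTHFD2 and 937 for the MTHFD1L window printed below. For PHGDH the distance was 63523 bases, for MTHFD2L 43944 and 9099, and for the MTHFD1L window without the site 141459. The windows were searched on both strands for TGATGNAA, the core letters of the amino acid response element at which ATF4 is known to bind. It was present in 3.62% of all 35116 windows and, among the 7 members, in MTHFD1L alone, where 3 overlapping windows of its 4 held the same site at chr6:150866357-150866364. The window of MTHFD1L that starts farthest downstream of these 3 is printed because it holds the site (capitals), and those of PSAT1 and MTHFD2 because these genes had the steepest rises in PC3 cells among members with a window. All 3 are on the plus strand.
MTHFD1L, chr6:150866236-150866535: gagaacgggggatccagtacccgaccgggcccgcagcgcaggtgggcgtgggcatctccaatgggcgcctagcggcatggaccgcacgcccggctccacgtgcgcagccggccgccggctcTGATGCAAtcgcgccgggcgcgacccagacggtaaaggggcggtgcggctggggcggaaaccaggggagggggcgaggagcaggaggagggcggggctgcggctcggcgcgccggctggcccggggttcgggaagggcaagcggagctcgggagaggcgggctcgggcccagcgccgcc
PSAT1, chr9:78296875-78297174: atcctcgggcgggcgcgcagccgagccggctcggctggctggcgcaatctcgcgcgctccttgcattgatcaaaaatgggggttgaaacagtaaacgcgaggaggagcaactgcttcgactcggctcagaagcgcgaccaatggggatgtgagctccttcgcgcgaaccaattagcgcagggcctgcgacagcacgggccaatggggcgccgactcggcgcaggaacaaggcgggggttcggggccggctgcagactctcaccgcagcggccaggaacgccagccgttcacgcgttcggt
MTHFD2, chr2:74198365-74198664: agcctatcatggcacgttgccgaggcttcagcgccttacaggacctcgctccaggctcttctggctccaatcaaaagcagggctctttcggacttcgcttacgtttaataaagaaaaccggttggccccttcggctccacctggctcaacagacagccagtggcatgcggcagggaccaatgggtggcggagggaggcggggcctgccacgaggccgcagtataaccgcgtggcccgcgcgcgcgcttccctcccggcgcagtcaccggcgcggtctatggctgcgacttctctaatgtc
The matched letters are a description of the window, and their absence from the other windows says only that they are not in those 300 bases.

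The first question was how pentamidine changed the members in each line. In PC3 cells 7 of the 10 members rose and 3 fell at an adjusted p below 0.05 (edgeR), against 21.7% of all genes tested that rose and 21.7% that fell. In DU145 cells 7 rose, none fell and 3 did not pass, against 17.2% and 16.8% of all genes. None fell in DU145 cells at an unadjusted p below 0.05 or by DESeq2 either, since all 10 log2 fold changes were above 0. The 7 members that rose were the same in both lines: PHGDH, PSAT1, PSPH, SHMT2, MTHFD2, MTHFD1L and ALDH1L2. Past 2-fold as well (an absolute log2 fold change above 1), 6 members were higher in PC3 cells, where 3.44% of all genes were higher and 1.31% lower by this rule, and 5 in DU145 cells, where the shares were 1.37% and 0.657%. No member was past 2-fold lower in either line. The median log2 fold change of the 10 members came to 1.37 in PC3 and to 0.81 in DU145 cells, beside 0.0046 and 0.0085 over all genes tested. The ranges of the pentamidine and the vehicle samples were apart for 9 members in PC3 cells and for 8 in DU145 cells, against 52.1% and 44.0% of all genes. With the mitochondria-encoded genes left out before scaling, 7 members rose in each line and 3 fell in PC3 cells, as before.

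**Figure D1:**
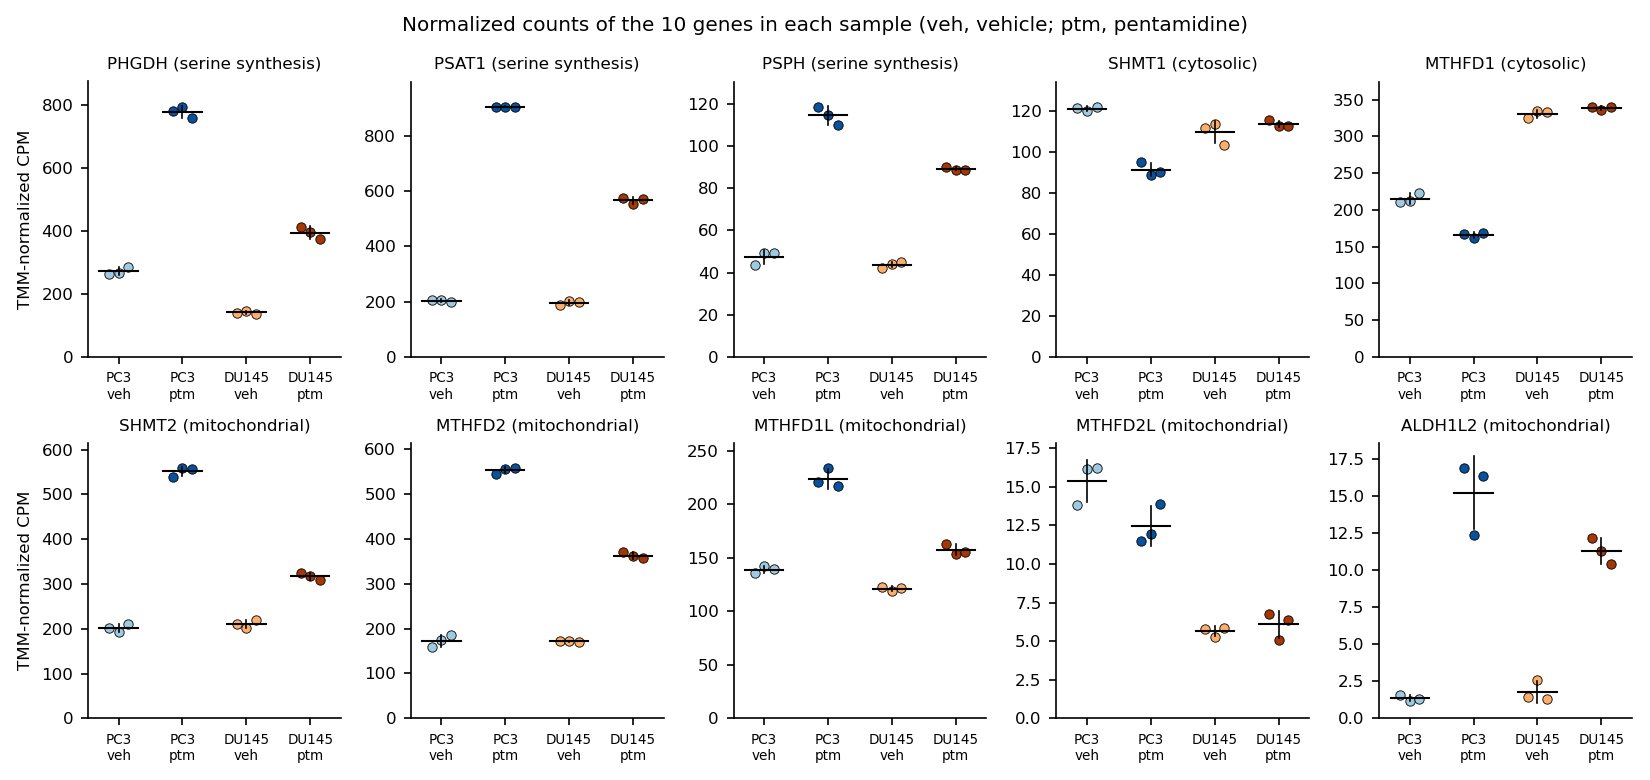
TMM-normalised CPM (vertical axis from 0) of each member in every sample, by group; points are samples, horizontal bars the mean and vertical bars the SD of 3 samples. Levels of the 3 serine synthesis genes and of 4 of the 5 mitochondrial genes were higher with pentamidine in both lines, and those of SHMT1 and MTHFD1 were lower in PC3 cells.

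All 3 serine synthesis genes rose past 2-fold in both lines, PSAT1 most. In units of CPM (reads of a gene per 1000000 reads of the sample, TMM-scaled), PHGDH, which catalyses the first and committed step (chr1:119648411-119744226), stood at 263, 266 and 285 CPM in PC3 vehicle samples and at 778, 794 and 757 CPM with pentamidine. In DU145 cells it went from 141, 147 and 137 CPM to 413, 396 and 374 CPM. The groups were far apart in both lines, and the vehicle level was higher in PC3 cells. PHGDH thus rose 2.87-fold in PC3 cells (log2 1.52 ± 0.050 SE, n = 3 per group, adjusted p = 1.7e-13, edgeR) and 2.80-fold in DU145 cells (log2 1.49 ± 0.037 SE, adjusted p = 3e-37, edgeR).

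PSAT1, the aminotransferase of the second step (chr9:78297143-78330093), gave 206, 206 and 198 CPM in PC3 vehicle samples and 903, 905 and 906 CPM in PC3 pentamidine samples. Its levels in DU145 cells were 187, 202 and 199 CPM with vehicle and 574, 552 and 571 CPM with pentamidine. The vehicle levels of the lines were close, and the treated levels were not. The rise was 4.46-fold in PC3 cells (log2 2.16 ± 0.047 SE, adjusted p = 3.7e-16, edgeR) and 2.89-fold in DU145 cells (log2 1.53 ± 0.034 SE, adjusted p = 9.3e-40, edgeR).

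PSPH, the phosphatase of the last step (chr7:56011051-56051604, minus strand), went from 43.5, 49.2 and 49.1 CPM to 119, 115 and 110.1 CPM in PC3 cells. In DU145 cells it went from 42.4, 44.0 and 44.9 CPM to 90.02, 88.8 and 88.8 CPM. Its rise was the least of the 3 genes in both lines, at 2.43-fold in PC3 cells (log2 1.28 ± 0.065 SE, adjusted p = 6e-11, edgeR) and 2.04-fold in DU145 cells (log2 1.03 ± 0.051 SE, adjusted p = 1.4e-23, edgeR). Its pseudogene PSPHP1, with which reads may be shared, had 0 counts in all PC3 samples and 12 to 21 in DU145 samples.

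Of the 5 mitochondrial folate genes, 4 rose in both lines and MTHFD2L did not. SHMT2, the mitochondrial serine hydroxymethyltransferase (chr12:57229327-57234935), had 202, 192 and 212 CPM in PC3 vehicle samples and 539, 559 and 556 CPM with pentamidine. In DU145 cells its levels were 212, 202 and 219 CPM with vehicle and 325, 317 and 309.7 CPM with pentamidine. The vehicle ranges of the lines overlapped, and it rose 2.74-fold in PC3 cells (log2 1.45 ± 0.050 SE, adjusted p = 2.8e-13, edgeR) and 1.51-fold in DU145 cells (log2 0.59 ± 0.035 SE, adjusted p = 2e-20, edgeR).

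MTHFD2, the dehydrogenase and cyclohydrolase of the mitochondrial branch (chr2:74198562-74217565), went from 158, 174 and 185 CPM to 545, 556 and 558 CPM in PC3 cells. Its DU145 levels went from 173, 171 and 170.0 CPM to 370.4, 361 and 357 CPM. This was a 3.22-fold rise in PC3 cells (log2 1.69 ± 0.058 SE, adjusted p = 2.8e-13, edgeR) and a 2.12-fold rise in DU145 cells (log2 1.09 ± 0.034 SE, adjusted p = 9.8e-33, edgeR). SLC4A5 on the other strand shares 1324 bases, or 27.2%, of the exon bases of MTHFD2, and whether counting used strand was not stated. SLC4A5 itself had 0 to 6 counts in any sample.

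MTHFD1L, which releases formate from the folate in mitochondria (chr6:150865549-151101887), had 135, 142 and 139 CPM in PC3 vehicle samples and 220.5, 234 and 216 CPM with pentamidine. In DU145 cells it had 123, 118 and 122 CPM with vehicle and 163, 153 and 155 CPM with pentamidine. Samples of the groups stayed apart in both lines, with a rise of 1.62-fold in PC3 cells (log2 0.69 ± 0.052 SE, adjusted p = 1.2e-08, edgeR) and of 1.30-fold in DU145 cells (log2 0.38 ± 0.039 SE, adjusted p = 1.5e-11, edgeR). Among the 7 members that rose it had the least log2 fold change in each line.

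ALDH1L2, the mitochondrial 10-formyltetrahydrofolate dehydrogenase (chr12:105019784-105084577, minus strand), was the scarcest member in vehicle samples and rose most. Its raw counts were 23, 18 and 18 in PC3 vehicle samples and 250, 174 and 242 in PC3 pentamidine samples. In DU145 cells they were 19, 37 and 19 with vehicle and 170, 166 and 150 with pentamidine. Every treated sample lay far above every vehicle sample, with a log2 fold change of 3.49 ± 0.19 SE in PC3 cells (11.3-fold, 95% interval 8.54 to 14.8, adjusted p = 1.4e-10, edgeR) and 2.67 ± 0.19 SE in DU145 cells (6.34-fold, 4.89 to 8.22, adjusted p = 2e-17, edgeR). Ordered by log2 fold change from the highest, it was gene 31 of 13861 in PC3 cells and gene 4 of 14313 in DU145 cells. Its cytosolic counterpart ALDH1L1 had at most 1 count in any sample. C12orf45, on the other strand, shares 145 exon bases with ALDH1L2 and had 334 to 515 counts.

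MTHFD2L, the second mitochondrial dehydrogenase (chr4:74114174-74303099), had 13.8, 16.1 and 16.2 CPM in PC3 vehicle samples and 11.5, 11.95 and 13.9 CPM with pentamidine. Its DU145 levels were 5.82, 5.26 and 5.85 CPM with vehicle and 6.79, 5.09 and 6.40 CPM with pentamidine. The groups overlapped in both lines. In PC3 cells it fell by 0.30 on the log2 scale (SE 0.12, adjusted p = 0.044, edgeR), a call lost with DESeq2 (adjusted p = 0.083) and without PC3 vehicle 2, PC3 vehicle 3, PC3 pentamidine 1 or PC3 pentamidine 2 (adjusted p = 0.13, 0.11, 0.17 and 0.12, edgeR). In DU145 cells its log2 difference of 0.11 did not pass (95% interval -0.21 to 0.43, adjusted p = 0.63, edgeR).

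Neither cytosolic folate gene rose. SHMT1, the cytosolic serine hydroxymethyltransferase (chr17:18327860-18363563, minus strand), had 121, 120 and 122 CPM in PC3 vehicle samples and 95.03, 88.6 and 90.1 CPM with pentamidine. In DU145 cells it had 111, 114 and 103 CPM with vehicle and 115, 112 and 113 CPM with pentamidine. The PC3 groups were apart and the DU145 groups overlapped: SHMT1 fell by 0.40 on the log2 scale in PC3 cells (SE 0.053, adjusted p = 1.1e-05, edgeR), and its DU145 difference of 0.056 did not pass (95% interval -0.029 to 0.14, adjusted p = 0.33, edgeR).

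MTHFD1, the cytosolic enzyme of 3 activities (chr14:64388031-64463457), went from 211, 212 and 223 CPM to 167, 161 and 168 CPM in PC3 cells. Its DU145 levels were 325, 335 and 333 CPM with vehicle and 341, 335 and 341 CPM with pentamidine. It fell by 0.37 on the log2 scale in PC3 cells (SE 0.050, adjusted p = 1.2e-05, edgeR), and in DU145 cells, where the groups were barely apart, the log2 difference of 0.039 did not pass (95% interval -0.026 to 0.10, adjusted p = 0.38, edgeR). Scaled by library size alone, SHMT1 and MTHFD1 passed in DU145 cells, with log2 differences of 0.11 and 0.089 (adjusted p = 0.047 and 0.026, edgeR). Under this scaling the median of all genes in DU145 cells moved from 0.0085 to 0.058. MKI67, a marker of proliferating cells chosen after its values were seen, fell by 0.78 on the log2 scale in PC3 cells and by 0.26 in DU145 cells. Its part in the levels of SHMT1 and MTHFD1 was not tested.

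**Figure D2:**
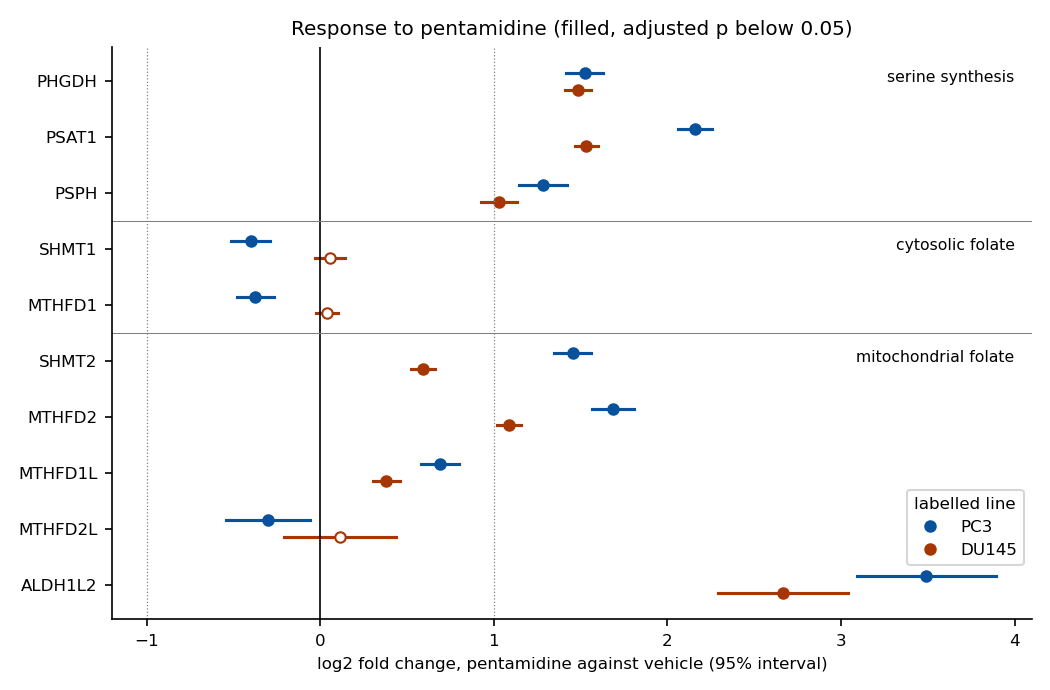
Log2 fold change of each member with pentamidine against vehicle (horizontal axis) in PC3 and DU145 cells, with 95% intervals; filled points passed an adjusted p below 0.05 and dotted lines mark a log2 fold change of 1. The 3 serine synthesis genes, SHMT2, MTHFD2, MTHFD1L and ALDH1L2 lie to the right of 0 in both lines, whereas SHMT1, MTHFD1 and MTHFD2L lie to the left in PC3 cells.

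Set against each other within a sample, the mRNA of SHMT2 gained on that of SHMT1, and those of MTHFD2 and MTHFD1L on that of MTHFD1, in every treated sample of both lines. The ratio of SHMT2 to SHMT1 counts, which is not corrected for length, was 1.67 ± 0.063 (SD, n = 3) in PC3 vehicle and 6.05 ± 0.34 in PC3 pentamidine samples, and 1.93 ± 0.17 and 2.80 ± 0.040 in DU145 samples. For MTHFD2 to MTHFD1 it was 0.80 ± 0.043 and 3.34 ± 0.099 in PC3 samples, and 0.52 ± 0.012 and 1.07 ± 0.020 in DU145 samples. The MTHFD1L to MTHFD1 ratio was 0.64 ± 0.023 and 1.35 ± 0.087 in PC3 samples, and 0.37 ± 0.012 and 0.46 ± 0.013 in DU145 samples. For none of these 3 ratios did the samples of vehicle and pentamidine overlap in either line. For MTHFD2L to MTHFD1 they overlapped in both, at 0.071 ± 0.0053 and 0.075 ± 0.0071 in PC3 samples and 0.017 ± 0.0012 and 0.018 ± 0.0025 in DU145 samples. Within the mitochondrial branch, MTHFD2 to MTHFD2L counts stood at 11.2 ± 0.36 and 44.7 ± 4.0 in PC3 samples, and at 30.5 ± 1.9 and 60.4 ± 9.1 in DU145 samples.

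**Figure D3:**
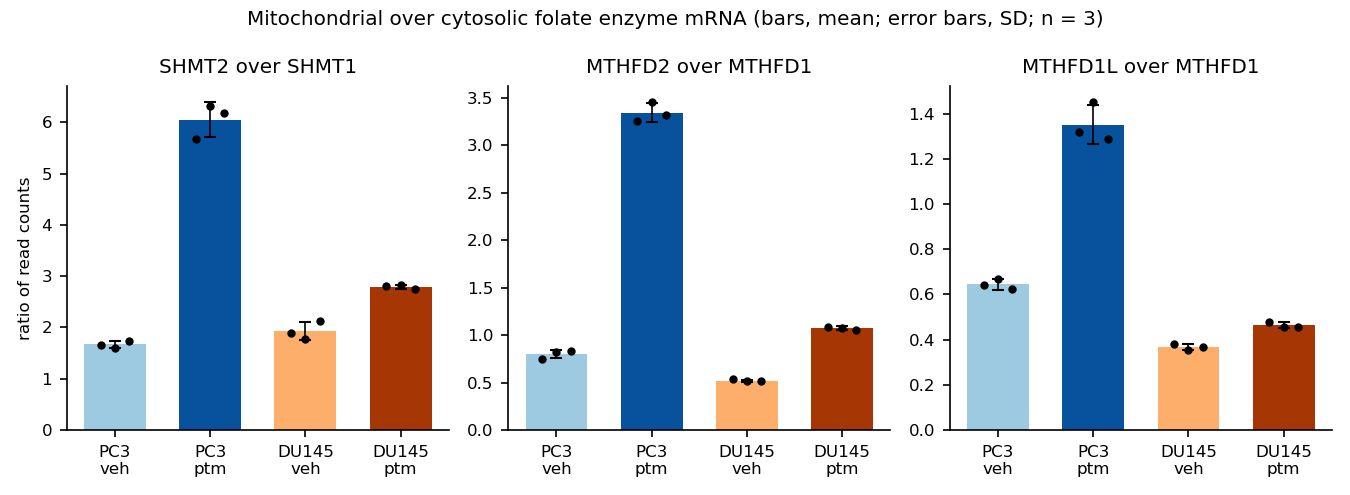
Ratio of read counts of mitochondrial to cytosolic folate enzymes (vertical axes from 0, one panel per pair) in the 4 groups; bars are means, error bars the SD and points the 3 samples. The SHMT2 to SHMT1 ratio stood at 1.67 in PC3 vehicle and 6.05 in PC3 pentamidine samples, and at 1.93 and 2.80 in DU145 samples.

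Summed over the genes of each class, serine synthesis took 522 ± 10.3 CPM (SD) in PC3 vehicle and 1796 ± 20.9 CPM in PC3 pentamidine samples, and 381 ± 11.4 and 1049 ± 23.8 CPM in DU145 samples. The mitochondrial folate genes took 530 ± 21.8 and 1356 ± 20.7 CPM in PC3 samples and 511 ± 9.69 and 855 ± 19.9 CPM in DU145 samples. The cytosolic genes took 336 ± 7.96 and 257 ± 6.42 CPM in PC3 samples and 440.4 ± 7.26 and 452 ± 4.03 CPM in DU145 samples.

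The next question was whether the lines differed in their response. The interaction of line and treatment over all 12 samples passed for 7 of the 10 members, against 20.4% of all genes tested. The response of PSAT1, PSPH, SHMT2, MTHFD2 and MTHFD1L was greater in PC3 cells, and that of SHMT1 and MTHFD1 was lower. SHMT2 differed most of the 7, with a log2 response 0.86 ± 0.060 SE higher in PC3 cells (adjusted p = 2.2e-11, edgeR). PSAT1 and MTHFD2 followed at 0.62 ± 0.055 SE (adjusted p = 2.1e-09, edgeR) and 0.60 ± 0.064 SE (adjusted p = 5.4e-08, edgeR), and MTHFD1L at 0.31 ± 0.063 SE (adjusted p = 5.7e-04, edgeR). The difference for SHMT1 was -0.46 ± 0.067 SE (adjusted p = 9.2e-06, edgeR) and that for MTHFD1 was -0.41 ± 0.056 SE (adjusted p = 2.7e-06, edgeR).

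For PSPH the difference of 0.25 ± 0.079 SE (adjusted p = 0.024, edgeR) was less firm. It was lost when counts were scaled by library size alone (0.18, adjusted p = 0.11, edgeR) and without PC3 vehicle 1, PC3 pentamidine 1, DU145 vehicle 3 or DU145 pentamidine 2 (adjusted p = 0.070, 0.068, 0.061 and 0.052, edgeR). The response of PHGDH, the enzyme upstream of these, differed by 0.038 with a 95% interval of -0.091 to 0.17 (adjusted p = 0.74, edgeR). MTHFD2L did not pass either, at -0.41 (95% interval -0.80 to -0.026, adjusted p = 0.13, edgeR). For ALDH1L2 the difference was 0.83 (95% interval 0.17 to 1.49, adjusted p = 0.070, edgeR). It passed without PC3 vehicle 1, PC3 pentamidine 2 or DU145 vehicle 3 (0.95, 0.96 and 1.02, adjusted p = 0.042, 0.031 and 0.036, edgeR), and fell to 0.45 without DU145 vehicle 2 (adjusted p = 0.41, edgeR), the vehicle sample with 37 counts. Intervals here are not adjusted for the number of genes, which is why they can leave out 0 where the adjusted p did not pass.

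In the vehicle samples, 5 of the 10 members differed between the lines, 4 of them higher in PC3 cells and 1 higher in DU145 cells. Of all genes tested, 33.2% were higher in PC3 and 33.2% higher in DU145. MTHFD2L was 2.73-fold higher in PC3 vehicle samples (log2 1.45 ± 0.13 SE, adjusted p = 2e-10, edgeR) and PHGDH 1.92-fold higher (log2 0.94 ± 0.046 SE, adjusted p = 4.7e-16, edgeR). MTHFD1 was 1.54-fold higher in DU145 vehicle samples (PC3 minus DU145 log2 -0.62 ± 0.039 SE, adjusted p = 1.3e-13, edgeR). The differences of MTHFD1L (0.20 ± 0.045 SE, adjusted p = 4e-04, edgeR) and SHMT1 (0.14 ± 0.047 SE, adjusted p = 0.0096, edgeR) were slight, and that of SHMT1 did not pass without DU145 vehicle 3 (0.10, adjusted p = 0.097, edgeR). Those of PSAT1 (0.054, 95% interval -0.029 to 0.14), PSPH (0.11, -0.012 to 0.23), SHMT2 (-0.065, -0.15 to 0.025), MTHFD2 (0.0071, -0.089 to 0.10) and ALDH1L2 (-0.39, -0.99 to 0.20, and -0.016 without DU145 vehicle 2) did not pass. Scaled by library size alone, PSAT1 and PSPH passed (0.11 and 0.17, adjusted p = 0.019 and 0.018, edgeR), and PSPH also did without PC3 vehicle 1 (0.17, adjusted p = 0.019, edgeR).

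Levels of different genes were compared per kilobase of all their exons together. PSAT1 had the highest level in every group, at 93.0 ± 2.1 CPM per kb (SD) in PC3 vehicle and 89.6 ± 3.6 in DU145 vehicle samples. SHMT2 came next in both vehicle groups, at 41.7 ± 2.0 and 43.6 ± 1.8 CPM per kb, followed in PC3 vehicle samples by MTHFD2 at 35.4 ± 2.8 and PHGDH at 29.4 ± 1.3, then MTHFD1L at 27.6 ± 0.67, a neighbour of PHGDH whose values were within about their spread. In DU145 vehicle samples the levels that followed, MTHFD1 at 35.3 ± 0.57 and MTHFD2 at 35.2 ± 0.31, did not differ beyond their spread, nor did PSPH at 15.8 ± 0.46, PHGDH at 15.3 ± 0.55 and SHMT1 at 15.04 ± 0.74. MTHFD2L and ALDH1L2 were the lowest everywhere, at 1.57 ± 0.14 and 0.16 ± 0.023 CPM per kb in PC3 vehicle samples. Several of these places rest on the length used. Over the longest coding transcript, the DU145 vehicle levels of PSPH, PHGDH and SHMT1 were 20.1 ± 0.59, 54.7 ± 2.0 and 44.4 ± 2.2 CPM per kb and were apart from each other. For PHGDH, whose longest coding transcript has 2585 bases in place of 9217 exon bases, the PC3 vehicle level was 105 ± 4.7 CPM per kb, above PSAT1.

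Outside the 10 members, 52 genes of serine and one-carbon metabolism and its regulators were set in 7 lists. Of the 41 tested in PC3 cells, 11 rose, 15 fell and 15 did not pass. Of the 43 tested in DU145 cells, 9 rose, 8 fell and 26 did not pass. Over all genes tested, 21.7% rose and 21.7% fell in PC3 cells, and 17.2% rose and 16.8% fell in DU145 cells. The counts of each list below are to be read beside the same shares and were not tested against them. The median log2 fold change of these genes was -0.071 and -0.0034, beside 1.37 and 0.81 for the members.

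Among 12 tested genes of serine uptake and use, 5 rose and 3 fell in PC3 cells, and 4 rose and 1 fell in DU145 cells. SLC1A4, a carrier of serine and other neutral amino acids, had 17 to 44 counts in PC3 vehicle and 331 to 391 in PC3 pentamidine samples, and 39 to 62 and 188 to 196 in DU145 samples. This was a rise of 12.4-fold in PC3 cells (log2 3.64 ± 0.17 SE, adjusted p = 2.5e-11, edgeR) and of 3.91-fold in DU145 cells (log2 1.97 ± 0.15 SE, adjusted p = 4.1e-16, edgeR). SLC1A5, a related carrier best known for glutamine, rose 2.49-fold and 1.98-fold (adjusted p = 9.9e-13 and 6.8e-29, edgeR). SDSL, named as serine dehydratase-like, rose by 2.13 and 1.48 on the log2 scale from 7 to 19 counts in vehicle samples (adjusted p = 2.7e-04 and 3.1e-05, edgeR).

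The genes of folate uptake and retention that passed were lower with pentamidine. Of 5 tested, 3 fell in each line and none rose by edgeR or DESeq2, while at an unadjusted p below 0.05 none rose in PC3 and 1 in DU145 cells. SLC19A1, the reduced folate carrier, fell by 0.67 on the log2 scale in PC3 cells and by 0.35 in DU145 cells (adjusted p = 9.6e-08 and 2.1e-08, edgeR). GGH, the hydrolase that trims folate polyglutamates, fell by 0.65 and by 0.23 (adjusted p = 7.7e-08 and 3.9e-04, edgeR).

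In purine and thymidylate synthesis, 1 of 7 tested genes rose in each line, while 4 fell in PC3 and 3 in DU145 cells. TYMS, the thymidylate synthase, fell by 0.66 on the log2 scale in PC3 cells (adjusted p = 2.2e-06, edgeR), beside -0.047 in DU145 cells (adjusted p = 0.51, edgeR). PPAT, of the first step of purine synthesis, fell by 0.43 and 0.21 (adjusted p = 1e-04 and 0.0019, edgeR).

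In the methionine cycle, 1 of 6 tested genes rose and 2 fell in PC3 cells, and 1 of 7 rose and 1 fell in DU145 cells. MTR, the methionine synthase, fell by 0.42 on the log2 scale in PC3 cells (adjusted p = 7e-05, edgeR), with -0.076 in DU145 cells. MTRR, which reactivates MTR, had -0.071 in PC3 cells and fell by 0.20 in DU145 cells (adjusted p = 8.1e-05, edgeR). Of the 3 glycine cleavage genes tested, GLDC rose in PC3 cells from 16 to 20 counts in vehicle samples to 28 to 44 with pentamidine (log2 1.11 ± 0.28 SE, adjusted p = 0.0041, edgeR), and 1 fell. In DU145 cells none passed by edgeR or DESeq2, with 1 higher and 1 lower at an unadjusted p below 0.05, GLDC having 304 to 374 counts in all 6 samples.

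ATF4 itself rose in both lines. Its counts were 5717, 6385 and 5863 in PC3 vehicle and 13261, 13070 and 12758 in PC3 pentamidine samples. In DU145 cells they were 4937, 5505 and 5275 with vehicle and 10421, 10852 and 10107 with pentamidine. The groups were apart in each line, with a log2 fold change of 1.13 ± 0.053 SE in PC3 (adjusted p = 2.3e-11, edgeR) and 0.97 ± 0.032 SE in DU145 cells (adjusted p = 1.1e-31, edgeR). The difference between the lines was 0.16 (95% interval 0.031 to 0.28, adjusted p = 0.072, edgeR). Of the 4 listed regulators, 2 rose and 1 fell in PC3 cells and 3 rose in DU145 cells.

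**Figure D4:**
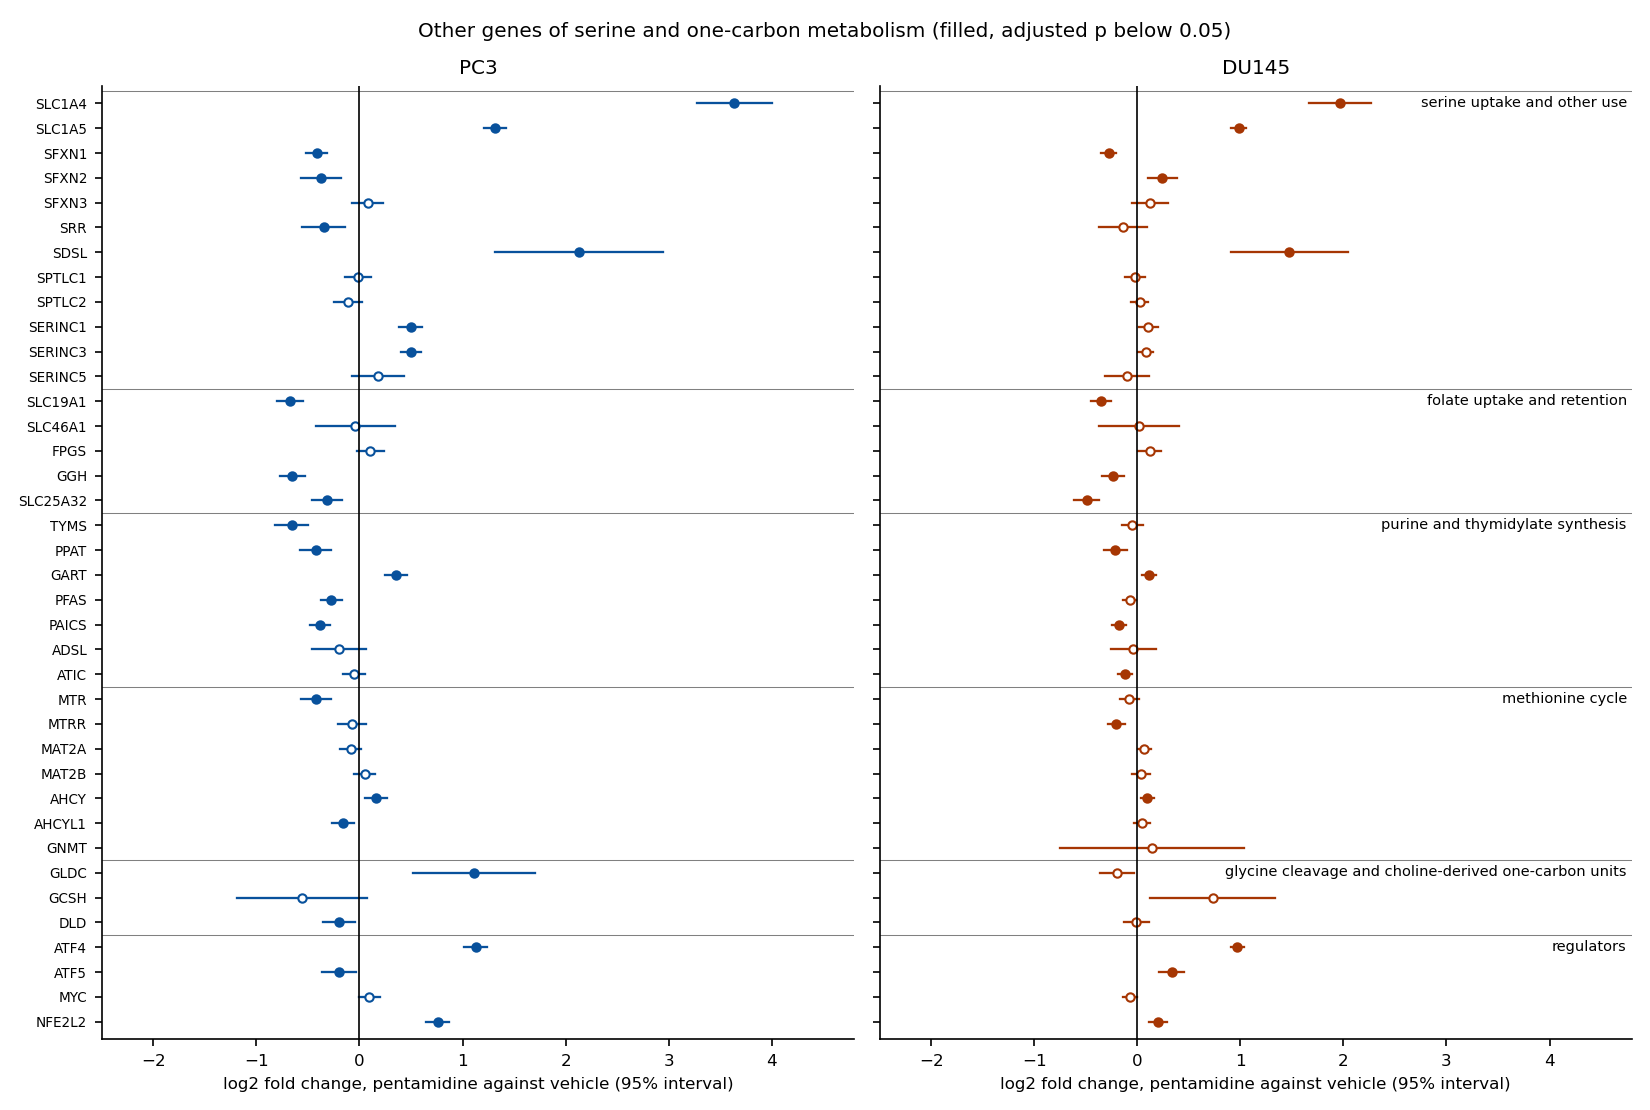
Log2 fold change with pentamidine against vehicle (horizontal axes, 95% intervals) of the genes tested from 6 of the other lists of serine and one-carbon metabolism, in PC3 cells (left) and DU145 cells (right); filled points passed an adjusted p below 0.05, and a gene not tested in a line has no point there. SLC1A4 lies farthest to the right in both lines, at 3.64 and 1.97, and SLC19A1 farthest to the left in PC3 cells, at -0.67.

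The genes whose pattern over samples was most like that of 3 members were ranked by Pearson's r of log2 CPM over the 12 samples, after the mean of each line was subtracted, among 13125 genes. The samples form a vehicle and a pentamidine cluster in each line, so r mostly follows the treatment difference, and it is given as a description. For PSAT1 the 5 genes were MT-RNR1, the mitochondrial 12S rRNA (r = 0.999), TRIB3, PCK2, GDF15 and CHAC1 (0.997). In these counts MT-RNR1 rose by 3.15 on the log2 scale in PC3 and by 2.32 in DU145 cells. By qPCR the study found MT-RNR1 reduced instead, and it put the rise in RNA-seq down, presumably, to sequencing errors. Its place in these rankings rests on the counts alone. For MTHFD2 they were IARS (r = 0.998), EIF4EBP1, SESN2, GARS and EIF2S2 (0.997), which include the aminoacyl-tRNA synthetases for isoleucine and glycine. For ALDH1L2 they were DOCK1 (r = 0.992), VEGFA, TRIB3, MT-RNR1 and MXD4 (0.990). Between members, r of the 7 that rose ran from 0.923 (PHGDH and SHMT2) to 0.995 (PSAT1 and MTHFD2), and that of SHMT1 and MTHFD1 was 0.962.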

How the data were processed

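RNA-seq of 12 samples of PC3 and DU145 cells was analysed. As stated in the study's methods and the submitters' processing notes, RNA was selected with Oligo(dT), sequenced as paired reads and aligned with HISAT2 2.1.0 to GRCh38, and genes were tested with DESeq 1.18.1. The program that counted reads and its use of strand are not given in the sources used here. The counts were deposited by the authors as whole reads per gene, without normalization. A table named for FPKM values and the authors' tables of fold changes and p-values for each line were not used. From the counts, 44 fragments of wrapped text lines and repeated entries were left out, and the 32077 genes left were tested with edgeR 4.0.16 (quasi-likelihood, TMM, filterByExpr at a minimum count of 10, Benjamini-Hochberg adjustment over all genes tested) in R 4.3.3. Each line was fitted with its own 6 samples, and the interaction and the vehicle comparison with all 12. Levels are CPM with TMM factors over 12 samples, correlations used log2(CPM + 1), and intervals cover 95%. DESeq2 1.42.0, other scalings and filters, a replicate block and leaving out each sample were alternatives. The scripts were tested on simulated data.

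The members and gene lists were chosen with earlier results of these data known. Named are all 10 members, ATF4, and of each other list the genes past 2-fold in either line whose higher group had no sample under 10 counts, or, where a list had none, the 2 with the largest mean absolute log2 fold change. A few genes and 1 of the lists are not reported here.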

Additional observations from a re-analysis of the deposited data

Results flagged for a closer look

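For 7 members the response to pentamidine differed between the lines by the interaction term (adjusted p below 0.05, edgeR), given as the log2 response in PC3 minus that in DU145 cells. The values were 0.862 for SHMT2, 0.623 for PSAT1, 0.601 for MTHFD2, 0.311 for MTHFD1L and 0.251 for PSPH, all greater in PC3 cells, and -0.457 for SHMT1 and -0.413 for MTHFD1, which fell in PC3 cells and did not pass in DU145 cells. The difference for PSPH was lost under scaling by library size alone and without 4 of the 12 samples, each left out in turn.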

How the results depend on the processing

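Of 660 log2 results of the members under the alternatives, 635 kept their direction and their side of the threshold. Each rise in either line kept its call under every alternative run. The number of all genes past 2-fold was 658 in PC3 and 290 in DU145 cells, and 431 and 154 when only genes with at least 10 counts in every sample were tested, which removes genes that are low in 1 group. The PHGDH interaction, which did not pass, turned from 0.038 to -0.030 under library size alone. The MTHFD2 difference between vehicle groups, which did not pass, turned from 0.0071 to -0.013 with RLE, -0.017 with the stricter filter and -0.013 with DESeq2, and ran from -0.045 to 0.068 with samples left out in turn. The cause was not tested. With the replicate number as a block, 5599 genes passed in PC3 (6010 without) and 4794 in DU145 cells (4860 without), and no member changed its call. The labels do not say whether the numbers pair the samples. Deviations of same-numbered samples correlated at -0.16 to 0.045 and those of differently numbered samples at -0.15 to 0.17. These values showed no pairing but cannot decide how the cultures were handled. The 3 samples per group, ALDH1L2 at 18 to 37 counts in vehicle samples and strand use that was not stated limit precision. Counts carry no molecular identifiers.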

Other observations

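Counts of relatives of the members, picked by gene name, were low. Likeness of sequence and sharing of reads with them were not tested. MTHFD2P1 had 1 to 2 counts in PC3 and 5 to 17 in DU145 samples, MTHFD2P7 had 0 to 7 in any sample, and MTHFD1P1, SHMT1P1 and PSAT1P4 had at most 3. On the strand opposite to MTHFD1, AL122035.2 shares 756 of its exon bases and had 8 to 28 counts, and SMCR8 shares 196 exon bases with SHMT1 and had 1736 to 2445 counts.

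After their values were seen, nearest patterns of MTHFD1 and SHMT1, which fell in PC3 cells, and of PHGDH were also listed, as a description. For MTHFD1 these included UNG (r = 0.991), ASF1B, KIF22 and E2F1 (0.977), of which UNG, ASF1B and E2F1 are known for roles in DNA replication or repair. For SHMT1 they were SIRPA (r = 0.976), PDE4A, PLCB3, SAMD1 and KIF22 (0.971), so KIF22 was near both. For PHGDH they included MARS, ATF4, YARS and ASNS, the asparagine synthetase, whose log2 fold change was 2.29 in each line.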
